A study of Mus musculus with 3 samples.

Results

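Ribosome-bound RNA of 10 neuronal adhesion genes was examined in the dentate gyrus of adult mice: the NCAM genes Ncam1 and Ncam2, the L1 family genes Nrcam, L1cam, Chl1 and Nfasc, the contactin gene Cntn1, the Caspr genes Cntnap1 and Cntnap2, and the SynCAM gene Cadm1. The genes were taken by name, and all 10 had a row among the 32531 gene rows of the count files. The mice were C57BL/6J animals of the Penk-TRAP line NIDA186, in which the ribosomal protein Rpl10a, fused to the fluorescent protein EGFP, is expressed from a transgene driven by Penk, which encodes proenkephalin. Tagged ribosomes were pulled down with antibodies against EGFP, and all 3 libraries are such immunopurified samples of untreated dentate gyrus, in 1 group, called replicates 1 to 3. The labels give no exact age or sex and leave unsaid if separate mice gave the replicates. Any p-value therefore speaks only about these samples, and the spread between them may be technical.

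These proteins sit in the neuronal surface and hold axons, dendrites and synapses to their neighbours. NCAM, L1 family, contactin and SynCAM proteins carry immunoglobulin domains outside the cell, whereas Caspr proteins belong to the neurexin superfamily and are included here as partners of contactins. At nodes of Ranvier and axon initial segments, L1 family proteins bind ankyrins through a short motif in their cytoplasmic tail, and beside the node contactin-1 and Caspr of the axon join to neurofascin of the myelinating glia. In the dentate gyrus, NCAM carrying polysialic acid is known from young granule cells and their mossy fibre axons.

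The codons of that ankyrin-binding motif are shown because all 4 L1 family members carry them, and they let their RNAs be compared at a site of shared function. In the longest complete coding sequence of each gene in GENCODE vM21 (GRCm38), the motif was found in frame once, 28 codons before the stop in Nrcam, L1cam and Nfasc and 23 codons before it in Chl1. Each line gives 60 bases of coding sequence, 5′ to 3′, with the 15 bases of the motif in capitals.
Nrcam: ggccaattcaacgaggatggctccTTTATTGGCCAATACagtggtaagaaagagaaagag
L1cam: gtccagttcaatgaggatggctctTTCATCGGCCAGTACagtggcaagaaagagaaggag
Nfasc: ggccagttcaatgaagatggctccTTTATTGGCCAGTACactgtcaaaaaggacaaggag
Chl1: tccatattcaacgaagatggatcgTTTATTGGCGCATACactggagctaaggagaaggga
Chl1 is known for alanine where the other members have glutamine in this motif. Over whole coding sequences the members were far from identical. The 6 pairs of L1 family genes shared between 58.4 and 62.1% of aligned bases, Ncam1 and Ncam2 59.5%, and Cntnap1 and Cntnap2 62.1%. For 9 of the 10 genes, no more than 0.757% of the 50-base windows of that transcript also stood in a transcript of another gene. In Ncam1 8.46% did, and the antisense gene Gm11149, which overlaps its exons over 417 bases, was among the genes that shared them. L1cam overlaps Arhgap4 over 100 bases and Cntnap1 overlaps Plekhh3 over 233 bases, and with the strand setting of the counting unknown, reads there cannot be assigned with certainty. The overlapping genes had few counts, from 0 to 165 per library.

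The libraries held 5348761, 19195559 and 11059982 counts on genes in replicates 1 to 3, and they differed widely from each other. Across the 8510 genes with enough counts, Pearson's correlation of log2 CPM (CPM being a gene's count scaled to a fixed library total) was 0.65 for replicates 1 and 2, 0.62 for 1 and 3 and 0.81 for 2 and 3. Genes are not independent replicates, and these values only describe the libraries. A total of 11240, 52133 and 45238 counts fell on the 10 adhesion genes, or 0.210% (95% exact binomial interval 0.206 to 0.214), 0.272% (0.269 to 0.274) and 0.409% (0.405 to 0.413) of all gene counts. These intervals include no error beyond counting, and PCR duplicates of a molecule count as separate reads. On the CPM scale the 10 genes summed to 2650, 2276 and 3871 CPM. The order of replicates 1 and 2 therefore turned with the scaling, while replicate 3 was highest on both scales. Of 9 dentate granule cell markers, Prox1 (658, 475 and 261 CPM), Stxbp6 (520, 575 and 132 CPM) and Rfx3 (400, 629 and 391 CPM) were well covered in every library. C1ql2 (608, 1482 and 103 counts) and Dsp (115, 2274 and 2093 counts) were found in each. In replicate 1 C1ql3 had 0 counts, Tdo2 had 1, Calb1 had 2 and Plk5 had 46, and Plk5 had 3 in replicate 3, so the markers of the labelled tissue were present only in part. No whole-tissue or unbound library was used here, so the data cannot show which cells the RNA came from, and fewer cells of a type and less RNA per cell cannot be told apart.

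The level test placed part of the 10 genes above the median expressed gene. All 10 passed the filter on low counts, and 4 lay above the median tested gene by a test on levels per kb of exon: Ncam1, Cntn1, Nrcam and Nfasc. Among all 8157 tested genes with a known exon length, 9.59% did so. None of the 10 lay below it (limma; 0 at an unadjusted p under 0.05, and 0 by edgeR), against 3.57% of all genes. The test (limma's TREAT) asks whether a gene's mean log2 level differs from the median gene of its library by more than 1, with p-values adjusted over all tested genes and a threshold of 0.05. Its standard errors (SE) and p-values use a variance drawn towards that of other tested genes, so they do not measure the gene's own spread alone. For Cntn1 the SE was 0.43 at a standard deviation over libraries of 0.21, and for Ncam2 0.69 at 1.71. The median log2 level of the 10 was 1.69, beside -0.14 for the means of all tested genes. In 3 of 3 libraries, 7 of the 10 were above the median gene, as were 31.0% of all tested genes. The exceptions were Cntnap2 and Ncam2, above it in 2 libraries each, and Cadm1, above it in 1.

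**Figure D1:**
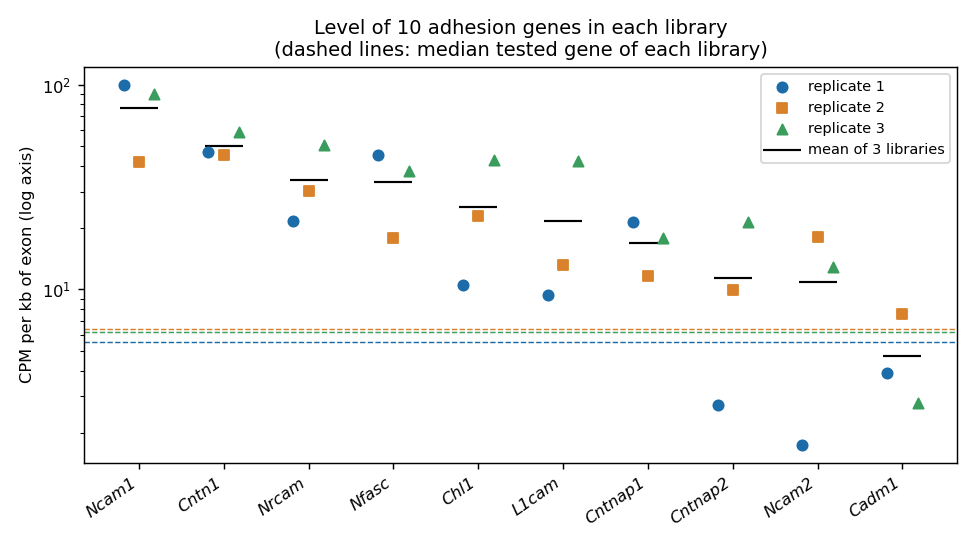
Level of each adhesion gene in each library, in CPM per kb of exon on a log axis, with 1 point per replicate, a black bar for the mean of 3 libraries and a dashed line for the median tested gene of each library. Ncam1 is the highest by mean at 77.2 and Cadm1 the lowest at 4.76, and the points below the dashed lines are those of Ncam2 and Cntnap2 from replicate 1 and of Cadm1 from replicates 1 and 3.

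Ncam1 (chromosome 9, 49502136 to 49798925, minus strand) encodes the neural cell adhesion molecule, which binds its like on neighbouring cells. It had 3676, 8344 and 9073 counts in replicates 1 to 3, which is 100.03, 42.0 and 89.6 CPM per kb of exon (mean 77.2 ± 30.9, SD, n = 3). Replicate 2 was the low library, and replicates 1 and 3 lay close together. The log2 level per kb of Ncam1, counted from the median gene, was 3.58 (SE 0.45, limma adjusted p = 0.000673), higher in 3 of 3 libraries, and ranked above 92.6% or more of tested genes in every library. It passed under all 11 alternatives, with adjusted p from 1.5e-09 to 0.00297.

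Ncam2 (chromosome 16, 81200697 to 81626828, plus strand) encodes the related molecule OCAM, known from axons of the olfactory system. Its counts were 84, 4668 and 1704, or 1.75, 17.99 and 12.9 CPM per kb (mean 10.9 ± 8.30). The gene was low in replicate 1 alone, where it ranked at the 26.1 percentile of tested genes, against 78.8 and 70.7 in the others. Its level was 0.30 above the median gene (SE 0.69, adjusted p = 0.997), and the sign turned without replicate 2 (-0.38; adjusted p over the alternatives from 0.127 to 1). Ncam1 exceeded Ncam2 in 3 of 3 libraries, by 5.83, 1.22 and 2.80 on the log2 scale per kb. The mean difference of 3.28 was larger than its SD of 2.34, and the exact sign-flip test gave p = 0.25, the smallest that 3 libraries allow. As a share of the summed NCAM level per kb, Ncam2 made up 1.72% in replicate 1 (95% interval from counting 1.37 to 2.12), 30.0% in replicate 2 (29.2 to 30.7) and 12.6% in replicate 3 (11.99 to 13.1). These intervals do not overlap, so the balance of both NCAM genes differed between libraries by more than counting error. Of the 8510 tested genes, 97.4% varied between libraries beyond counting error. The lack of overlap therefore says nothing particular about the NCAM genes, nor about the L1 family and Caspr shares below.

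Among L1 family genes, which link the surface to ankyrins, Nrcam and Nfasc were the highest by mean. Nrcam (chromosome 12, 44328885 to 44601964, plus strand), a gene of node and initial segment assembly, had 1227, 9245 and 7875 counts, or 21.7, 30.2 and 50.4 CPM per kb (mean 34.1 ± 14.8). Nfasc (chromosome 1, 132564690 to 132741797, minus strand), whose products gather sodium channels at the initial segment in neurons and join the axon in oligodendrocytes, had 2715, 5769 and 6232 counts, or 45.3, 17.8 and 37.7 CPM per kb (mean 33.6 ± 14.2). The means of both genes were nearly equal, while their order turned between libraries. Nfasc was higher in replicate 1 and Nrcam in replicates 2 and 3, and the mean log2 difference of 0.04 was far smaller than its SD of 0.97 (exact sign-flip p = 1). Nrcam stood above the median gene by 2.41 (SE 0.46, limma adjusted p = 0.0342) and Nfasc by 2.37 (SE 0.48, limma adjusted p = 0.0453), each higher in 3 of 3 libraries. Both calls were marginal. Leaving out replicate 2 ended both (adjusted p = 0.154 and 0.0542), as did leaving out replicate 3 (0.2501 and 0.180) or thinning all libraries to the depth of replicate 1 (0.0758 and 0.0987). The adjusted p ranged from 6.7e-06 to 0.2501 for Nrcam and from 1.1e-05 to 0.180 for Nfasc over the 11 alternatives.

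Chl1 and L1cam, the other two members of that family, were found at lower levels. Chl1 (chromosome 6, 103510586 to 103750211, plus strand), the close homologue of L1, had 547, 6409 and 6157 counts, or 10.5, 22.8 and 42.9 CPM per kb (mean 25.4 ± 16.3). L1cam (chromosome X, 73853778 to 73896105, minus strand), a gene of axon growth and bundling, had 294, 2222 and 3624 counts, or 9.43, 13.2 and 42.2 CPM per kb (mean 21.6 ± 17.9). Each was lowest in replicate 1 and highest in replicate 3. The level of Chl1 was 1.85 (SE 0.51, limma adjusted p = 0.233) and that of L1cam 1.53 (SE 0.54, limma adjusted p = 0.462), above 0 in 3 of 3 libraries and short of the threshold. Without replicate 1 both passed, at 2.81 (adjusted p = 0.000212) and 2.41 (adjusted p = 0.00654), within ranges over the alternatives of 0.000212 to 0.641 and 0.00322 to 0.820. Nrcam exceeded L1cam by 0.88 (SD 0.54) and Chl1 by 0.56 (SD 0.43) on the log2 scale per kb, in 3 of 3 libraries (exact sign-flip p = 0.25 each, the smallest possible).

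The make-up of the L1 family shifted between libraries. Nfasc contributed 52.1% of the summed L1 family level per kb in replicate 1 (95% interval from counting 50.7 to 53.6), against 21.2% (20.7 to 21.7) and 21.8% (21.3 to 22.3) in replicates 2 and 3. Nrcam held 24.9, 35.98 and 29.1%, and Chl1 12.1, 27.1 and 24.7%. L1cam held 10.9, 15.7 and 24.4%. The summed level itself was 86.8, 84.0 and 173 CPM per kb, so replicates 1 and 2 reached about the same total with different shares of these genes.

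**Figure D2:**
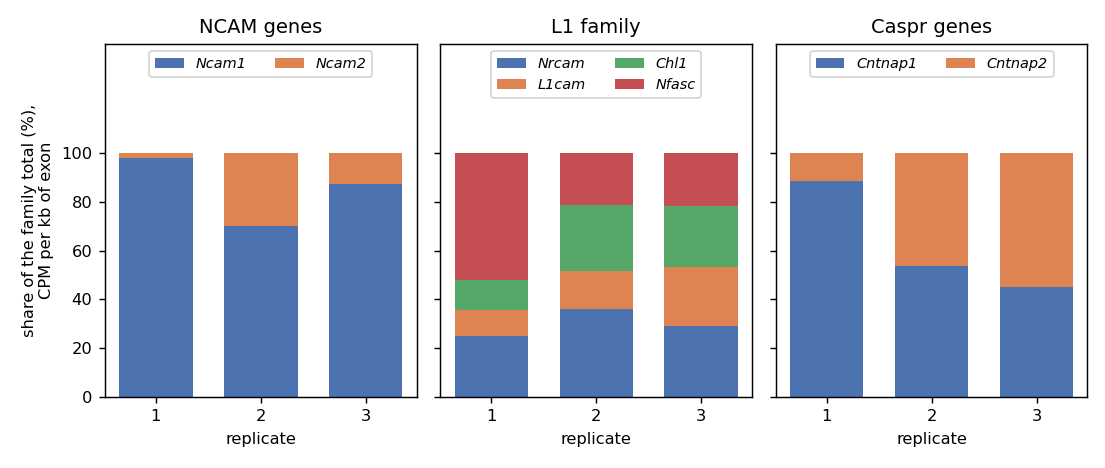
Share of each gene in the summed level of its family (percent, from CPM per kb of exon) in replicates 1 to 3, for the NCAM genes, the L1 family and the Caspr genes. Ncam2 is a thin band of 1.72% in replicate 1, where Nfasc takes 52.1% of the L1 family and Cntnap1 88.7% of the Caspr pair.

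Cntn1 was the steadiest of the 10 genes. The gene (chromosome 15, 92051165 to 92341967, plus strand) encodes contactin-1, held to the membrane by a lipid anchor, a partner of Caspr beside the node and of sodium channels. It had 1871, 9769 and 6451 counts, or 46.8, 45.2 and 58.5 CPM per kb (mean 50.2 ± 7.27). Replicates 1 and 2 were alike and replicate 3 slightly higher. Its level of 3.05 above the median gene (SE 0.43, limma adjusted p = 0.00268) was seen in 3 of 3 libraries and passed under all 11 alternatives, with adjusted p from 4.7e-08 to 0.0226. The range of its log2 CPM over the libraries was 0.37, at the 3.24 percentile of the ranges of all tested genes, whose median was 1.84. Among the 290 tested genes within 0.5 of its mean log2 CPM, the median range was 1.18 and that of Cntn1 stood at the 6.55 percentile.

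Cntnap1 and Cntnap2 encode Caspr and Caspr2, which sit on the axon beside the node, Caspr next to contactin-1 and Caspr2 at the potassium channels one step further out. Cntnap1 (chromosome 11, 101170523 to 101190724, plus strand) had 534, 1558 and 1218 counts, or 21.4, 11.6 and 17.7 CPM per kb (mean 16.9 ± 4.98). Cntnap2 (chromosome 6, 45059357 to 47304213, plus strand), which spans 2244.857 kb of the genome, had 119, 2338 and 2564 counts, or 2.74, 9.96 and 21.4 CPM per kb (mean 11.4 ± 9.41). The order of the pair turned, with Cntnap1 ahead in replicates 1 and 2 and Cntnap2 ahead in replicate 3. Their log2 differences, Cntnap1 minus Cntnap2, were 2.96, 0.22 and -0.27 per kb, with a mean of 0.97 below its SD of 1.74 (exact sign-flip p = 0.75). Cntnap1 made up 88.7% of the pair's level per kb in replicate 1 (86.5 to 90.6), 53.8% in replicate 2 (52.1 to 55.4) and 45.3% in replicate 3 (43.6 to 47.0). Neither gene passed the level test, Cntnap1 at 1.45 (SE 0.51, limma adjusted p = 0.506) and Cntnap2 at 0.48 (SE 0.64, limma adjusted p = 0.988). The sign for Cntnap2 turned without replicate 3 (-0.053; adjusted p over the alternatives from 0.0818 to 1). Cntn1 exceeded its partner Cntnap1 by 1.60 on the log2 scale per kb (SD 0.43) and Cntnap2 by 2.57 (SD 1.36), in 3 of 3 libraries (exact sign-flip p = 0.25 each, the smallest possible).

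Cadm1 (chromosome 9, 47530173 to 47857637, plus strand), whose product SynCAM1 bridges the synaptic cleft, was the lowest of the 10. It had 173, 1811 and 340 counts, or 3.91, 7.57 and 2.79 CPM per kb (mean 4.76 ± 2.50). Replicate 2 was the high library. Its level lay at -0.46 (SE 0.69, limma adjusted p = 0.988), and the sign turned under 5 alternatives, among them the length of the longest transcript in place of all exons (0.21), so its side of the median gene was not settled.

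In the order of mean log2 level per kb, Ncam1 came first, followed by Cntn1, Nrcam, Nfasc, Chl1, L1cam, Cntnap1, Cntnap2, Ncam2 and Cadm1. Of the 9 pairs of neighbours in that order, only Cntn1 and Nrcam differed beyond their spread, meaning by the same sign in 3 of 3 libraries and with a mean (0.64) above the SD of the difference (0.45). That call ended with no length correction (0.13) and with the longest transcript (0.28), where Chl1 and L1cam differed beyond their spread instead (1.06 and 0.50). The other 8 neighbours cannot be ordered from these libraries. Of the 9 pairs chosen for their biology, 6 differed beyond their spread: Ncam1 over Ncam2, Nrcam over L1cam and over Chl1, Cntn1 over Cntnap1 and over Cntnap2, and Cntn1 over Nfasc. The first 5 of these held in all 7 alternatives run on the pairs. Cntn1 over Nfasc ended with no length correction (Nfasc minus Cntn1 -0.09), without replicate 2 (-0.34) and without replicate 3 (-0.70), and Nfasc over L1cam passed with no length correction (1.79) and without replicate 3 (1.34). The 3 that did not in the main setting were Nrcam with Nfasc, Nfasc with L1cam and Cntnap1 with Cntnap2. Of these, Nrcam over Nfasc also passed without replicate 1 (0.59, SD 0.24), where only 2 libraries must share a sign. No sign-flip test of 3 libraries can go under 0.25, so none of the 18 differences can pass a threshold of 0.05.

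All 10 genes varied between libraries by more than counting error (Poisson chi-square test, Benjamini-Hochberg adjusted p of 2.5e-46 or less). So did 97.4% of the 8510 tested genes, so the count says nothing particular about the adhesion genes. Ncam2, Cntnap2, Chl1, L1cam and Nrcam were lowest in replicate 1, as were 42.2% of tested genes. Ncam1, Nfasc and Cntnap1 were highest in replicate 1 and lowest in replicate 2. Cadm1 was highest in replicate 2 and lowest in replicate 3. In all, 3 of the 10 were highest in replicate 1 (37.6% of tested genes), 2 in replicate 2 (30.5%) and 5 in replicate 3 (31.9%). The widest range was that of Ncam2, at 3.35 on the log2 CPM scale, followed by Cntnap2 at 2.96, L1cam at 2.16 and Chl1 at 2.03. The median over the 10 was 1.39, beside 1.84 over all tested genes. Among tested genes of like mean log2 CPM, chosen as for Cntn1 above, median ranges were lower, from 1.16 (Nfasc) to 1.67 (Cadm1). Against these genes, Ncam2 (94.4 percentile), Cntnap2 (91.2), L1cam (82.6), Chl1 (79.2), Nfasc (60.1), Ncam1 (54.6) and Nrcam (52.7) ranged above the median. Cadm1 (40.5), Cntnap1 (26.0) and Cntn1 (6.55) ranged below it. The 10 were therefore not shown to vary less than genes of their level. Without replicate 3, Cntn1 did not differ between the remaining libraries beyond counting error (adjusted p = 0.885), whereas the other 9 did. The adjusted p of Cntn1 was 6.7e-28 or less in the other alternatives with all 3 libraries and 7.9e-23 or less without replicate 1 or 2.

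**Figure D3:**
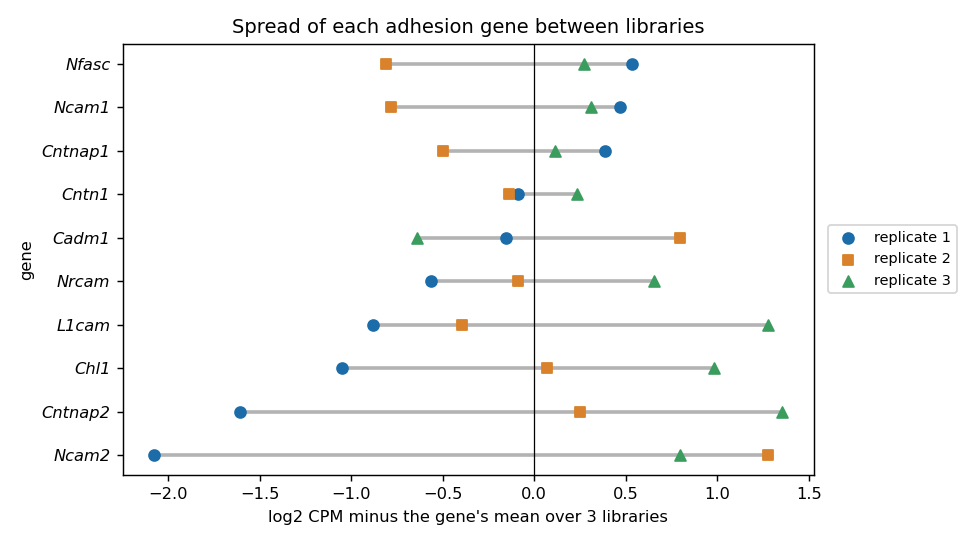
Deviation of each adhesion gene's log2 CPM from its own mean over 3 libraries, with 1 point per replicate and a grey line over the range. Cntn1 spans 0.37 and Ncam2 spans 3.35, and the 5 lowest genes on the axis have replicate 1 at their left end.

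Transcript GC content moved with the difference of replicate 1 from the others. Over the 10 genes, Spearman's rank correlation between the GC content of the longest transcript and the log2 CPM of replicate 1 minus the mean of replicates 2 and 3 was 0.66, a description of 10 points that share the same 3 libraries. Ncam2, at 38.2% GC, differed by -3.11, and Chl1, at 39.9% GC, by -1.57. At the other end Nfasc, at 54.1% GC, differed by 0.80 and Cntnap1, at 56.1% GC, by 0.58. L1cam departed from that order, with 53.1% GC and a difference of -1.32, and so did Cntn1, with 43.6% GC and -0.14. Cadm1 and Cntnap2 were close in GC content, at 43.9 and 44.5%, but differed by -0.23 and -2.41. Across 7924 tested genes the same correlation was 0.15, and the median difference went from -0.50 in the 1585 genes with the lowest GC content to 0.35 in the 1585 with the highest. Genes within 2 points of the GC content of Ncam2 had a median difference of -0.36 and those within 2 points of Cntnap2 one of -0.39, beside -3.11 and -2.41 for these 2 genes themselves. The part of GC content in the differences was not tested.

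**Figure D4:**
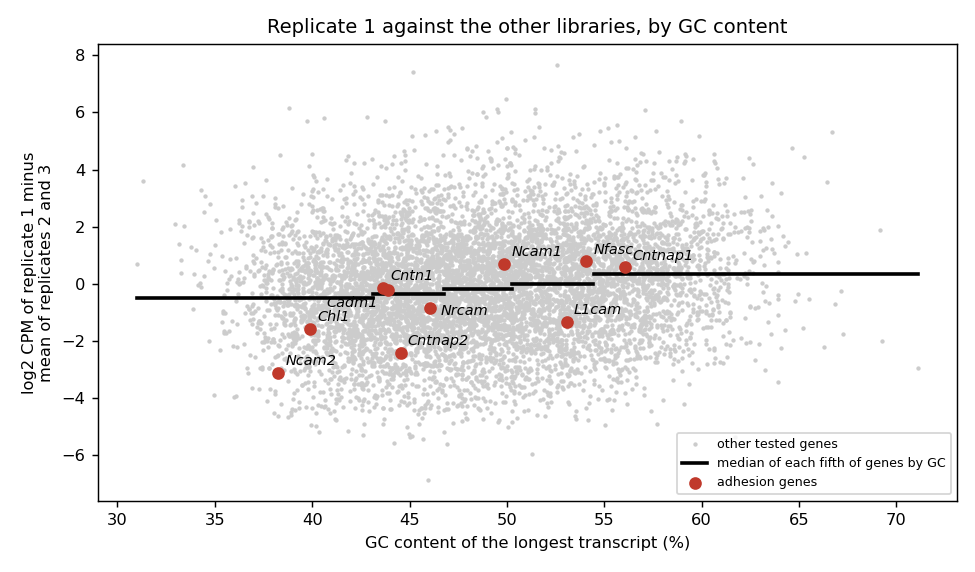
Difference in log2 CPM of replicate 1 from the mean of replicates 2 and 3 against the GC content of the longest transcript, for the adhesion genes (red, named) and all other tested genes (grey), with black bars for the median of each of 5 groups of genes by GC content. Ncam2 lies lowest at -3.11 and the bars climb from -0.50 to 0.35.

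Markers of other cells moved between the libraries too. Summed over 7 oligodendrocyte markers, levels were 878, 739 and 1208 CPM in replicates 1 to 3, with Mag, the lowest of them per kb, at 5, 91 and 186 counts. Summed over 6 astrocyte markers they were 3070, 1366 and 3232 CPM, most of it Slc1a2, while Gja1 had 0, 296 and 129 counts. The glutamatergic markers (Camk2a and Slc17a7) summed to 14632, 6330 and 9217 CPM, and the 3 GABAergic markers to 218, 114 and 260 CPM. Ncam1, Nfasc, Cntnap1 and Cntn1 were lowest in replicate 2, as were the sums of these 4 lists, neuronal and glial. The glutamatergic sum alone of the 4 was also highest in replicate 1, as were Ncam1, Nfasc and Cntnap1. That sum was almost wholly Camk2a, and Slc17a7 was lowest in replicate 3. In the oligodendrocyte, astrocyte and GABAergic lists, Mobp, Mog, Mag, Cldn11, Aqp4, Gja1 and Slc32a1 were lowest in replicate 1, the others in replicate 2. The sum of 6 pan-neuronal markers was instead highest in replicate 2, at 7477, 13510 and 8399 CPM, most of it Snap25. Snap25, Syt1 and Stmn2 were highest there, Rbfox3 and Eno2 in replicate 1 and Nefl in replicate 3. The 9 granule cell markers summed to 1760, 1992 and 1032 CPM, the order in which Cadm1 was found too. That sum was mostly Prox1, Stxbp6 and Rfx3, and of the 9 markers only Stxbp6 and Rfx3 had this order themselves. Prox1, C1ql2 and Plk5 were highest in replicate 1, and Dsp was highest in replicate 3. Calb1, C1ql3 and Tdo2 were highest in replicate 2 but lowest in replicate 1. The 4 microglial markers summed to 3.30, 6.33 and 20.9 CPM, with P2ry12 at 0, 64 and 202 counts, Aif1 at 0, 5 and 0 counts and 3 of the 4 at 0 in replicate 1. The 3 endothelial markers summed to 17.2, 119 and 238 CPM, with Flt1 at 73, 2058 and 2648 counts and Cldn5 at 0, 11 and 1 counts. The oligodendrocyte precursor markers Pdgfra and Cspg4 summed to 4.72, 18.8 and 38.9 CPM. These 3 sums were lowest in replicate 1 and highest in replicate 3, as were Nrcam, L1cam, Chl1 and Cntnap2. Of the markers in these sums, only P2ry12, Flt1 and Cspg4 had this order themselves. Cx3cr1, Aif1, Cldn5, Pecam1 and Pdgfra were highest in replicate 2, and Csf1r was lowest there. The part of other cells in these differences was not tested.

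Relatives and partners of the adhesion genes, from lists chosen for their known roles, were read on the same scale. Of 13 close relatives, 7 could be tested and 2 lay above the median gene, both of them SynCAM genes: Cadm3 at 3.34 (limma adjusted p = 0.00178) and Cadm2 at 3.39 (limma adjusted p = 0.000851). Per kb, Cadm3 reached 67.7 and Cadm2 65.4 CPM on average, beside 4.76 for Cadm1. Cntn3, the next highest, had 7.86 CPM per kb and Cntnap3, the lowest, 0, 24 and 12 counts. The median level of the tested relatives was -0.58, beside 1.69 for the 10 adhesion genes and -0.14 for all genes.

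Of 17 anchors and channel partners, which hold these proteins to the membrane skeleton, all were tested and 7 lay above the median gene, with a list median of 0.98. The spectrin gene Sptbn1 led with 157 CPM per kb (level 4.41) and the ankyrin gene Ank2 reached 119 (level 4.23). Ank3, the ankyrin of the initial segment, is named here after its values were seen: it had 1461, 1336 and 2836 CPM and a level of 3.07 (limma adjusted p = 0.00304). Mpp3, a scaffold gene, was the lowest at 0.961 CPM per kb.

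Among 10 genes of NCAM glycosylation and signalling, 1 of 9 tested lay above the median gene. That was Prnp, the prion protein gene, at 77.6 CPM per kb (level 3.46, limma adjusted p = 0.00140), followed by the sialyltransferase gene St8sia3 at 30.1 and the growth cone gene Gap43 at 29.7. Of the polysialyltransferase genes that modify NCAM, St8sia2 had 0, 122 and 1 counts and was the lowest of the list. St8sia4, the other, is named after its values were seen: it was found in every library, at 59, 619 and 196 counts, with a level of -2.70 (limma adjusted p = 0.107). The list median was 0.70. Of 8 contactin ligands and phosphatase receptors, 7 were tested, 0 lay above and 1 below the median gene, with a median of 1.05 (limma; 1 above at an unadjusted p under 0.05, and 1 above and 0 below by edgeR). Ptprz1, the receptor phosphatase that binds contactin-1 and is known from glia, had 164, 290 and 2213 CPM, and its level of 2.46 missed the threshold (limma adjusted p = 0.0875). Ptprg and Ptprd had 19.1 and 14.8 CPM per kb, and Gldn, a node protein of peripheral nerve, had 0, 50 and 0 counts. The gene below the median was Tnc, named after its values were seen, at -3.20 (limma adjusted p = 0.0450).

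Of 6 shedding proteases, enzymes that cut adhesion proteins at the membrane, 4 were tested and 0 passed in either direction (limma; 0 at an unadjusted p under 0.05, and 0 by edgeR). Adam10 had a mean of 9.06 CPM per kb. Adam17 had 16.4, 1.06 and 0.167 CPM per kb (498, 173 and 14 counts), so its mean of 5.88 came almost wholly from replicate 1, and Mmp9 had 0 counts in each library. Of 20 other immunoglobulin adhesion genes, 16 were tested, with 2 above and 1 below the median gene and a list median of 0.14. Thy1 and Opcml lay above, at 69.6 and 35.7 CPM per kb. Negr1, at 27.3, did not pass (level 2.10, limma adjusted p = 0.0994), and Sdk1 lay below, at -4.50 (limma adjusted p = 0.000989).

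**Figure D5:**
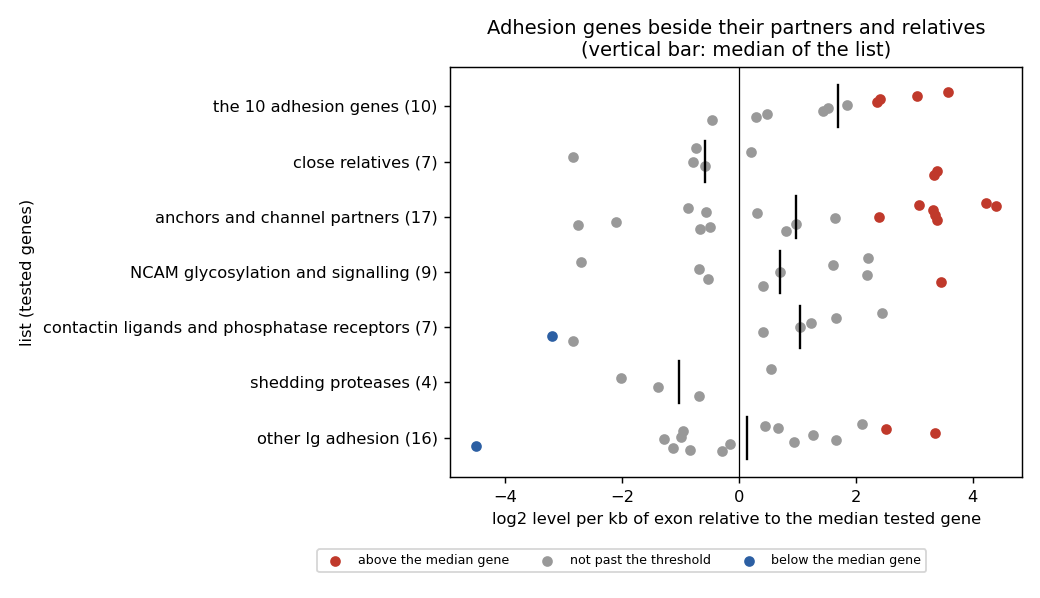
Mean log2 level per kb of exon relative to the median tested gene, for the 10 adhesion genes and the tested members of 6 lists of relatives and partners, with 1 point per gene, colours for the test result and a black bar for the median of each list. The median of the adhesion genes is 1.69, and the lists lie between -1.03 for shedding proteases and 1.05 for contactin ligands and phosphatase receptors.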

How the data were processed

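RNA of immunopurified ribosomes was sequenced in 3 libraries. Each deposited file holds raw read counts per gene symbol, not normalised and not pooled. STAR 2.0.0e, HTSeq and the build mm10 are listed in the submitters' processing notes, whereas annotation, strand setting and filters are not given in the sources used here. Summary rows and a row named unknown were left out; 16.3, 38.2 and 21.1% of listed reads fell on genes. A count of 0 allows up to 3 counts, which equals 0.707, 0.131 and 0.257 CPM in replicates 1 to 3.

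In R 4.3.3, edgeR 4.0.16 gave log2 CPM with TMM factors and a prior count of 2. Its function filterByExpr kept 8510 of 32531 genes, of which 8157 had a merged exon length in GENCODE vM21 (GRCm38), found by current or older symbol. Levels per kb were tested with limma 3.58.1 (trend, TREAT, intercept only), Benjamini-Hochberg over all tested genes. Library differences were tested with a Poisson chi-square test on effective library sizes, pairs of genes with an exact two-sided sign-flip test. Exact binomial intervals on counts were carried to the scale per kb. For edgeR's quasi-likelihood alternative, the F statistic was formed by hand at the nearer threshold, since edgeR refuses a design of 1 column. Further settings tried were a prior count of 0.5, all genes with a count, size factors from DESeq2 1.42.0, no or another length, library sizes without ribosomal protein and mitochondrial genes, thinning to the smallest library, and leaving out each replicate. In a simulation of 8157 genes, 78% of those placed 4-fold over the median gene were called by limma, 100% at 16-fold and 0% at the median itself. The spread between simulated libraries may differ from that of these data, so the shares are not the power here. Stmn2, for one, had a level of 2.04, about 4-fold, and did not pass (limma adjusted p = 0.118). A gene not called is therefore not shown to lie near the median. The chi-square test found 100% of the simulated 4-fold differences and called 0.0496% of the unchanged genes. Figures were drawn with matplotlib 3.10.9.

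The members and lists were chosen with earlier results of these data known. Named are all 10 members, the 3 highest and the lowest gene of each list, all granule cell markers and the highest and lowest of other marker lists where a result touches them. No genes were named for a like pattern, since 3 libraries cannot rank likeness. Some genes that this rule names are not reported here.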

Additional observations from a re-analysis of the deposited data

How the results depend on the processing

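Of the 10 adhesion genes, 4 lay above the median gene, and 4 did with DESeq2 size factors (which nearly cancel, since levels are taken from each library's median), a prior count of 0.5, the longest transcript, a reduced library size and edgeR; 5 did with no length correction. With no filter 7 did, since rarely detected genes lower the median gene, 2 with thinned libraries and 2 to 6 with 1 replicate left out. Over all genes, 782 lay above and 291 below; these counts were 2761 and 2613 with no filter, 1196 and 444 without length correction, 1567 and 654 without replicate 1, and 995 and 174 by edgeR. The members' median of 1.69 became 3.63 with no filter, 2.60 without length correction and 1.52 to 2.47 with 1 replicate left out. Cadm1 changed sign to 1.48 with no filter, 0.58 without length correction and 0.21 with the longest transcript. With 1 replicate left out, levels ran from -0.91 to 0.049 for Cadm1 (0.0050 without replicate 3), from -0.38 to 1.77 for Ncam2 and from -0.053 to 1.71 for Cntnap2. Neighbour pairs beyond their spread numbered 1, but a different pair with no length correction or the longest transcript, and 2 to 4 with 1 replicate left out, where only 2 libraries must share a sign. Pairs chosen for their biology numbered 6, with 1 exchanged without length correction, and 5 to 7 with 1 replicate left out. The cause of the other changes was not tested. Variation beyond counting error held for 10 genes in each alternative except without replicate 3 (9). No paired analysis was possible because there is 1 group. The lowest counts were those of Ncam2 and Cntnap2 in replicate 1, at 84 and 119. Thinned to the depth of replicate 1, these genes stayed uncalled, and Nrcam and Nfasc lost their calls (limma adjusted p = 0.0758 and 0.0987).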
